A study of Mus musculus with 8 samples.

Results

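Mitochondria carry their own small genome, and the proteins that copy, transcribe and translate it are nearly all encoded in the nucleus. The genes described here are 32 of these nuclear genes: factors of mitochondrial DNA replication, nucleotide supply, transcription, RNA processing and translation, together with the transcriptional regulators of mitochondrial biogenesis. The rule that picks them is a list of symbols and uses no measured value, though the list was drawn up with earlier results of these data known. Of the 32 genes, 31 were measured by a probe set whose annotation gives 1 gene symbol, among 22180 such genes in all. For Slirp, an RNA-binding protein gene, the single probe set lists a second gene as well, so Slirp was left out. Every value is a log2 expression value, so a difference of 1 is a doubling of signal.

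Liver RNA came from 8 mice of strain C57BL/6N at 27 days of age, each on 1 Affymetrix whole-transcript array. The 4 knockout mice carried 1 albumin-Cre transgene and 2 floxed copies of Sco1, which encodes a mitochondrial copper chaperone for cytochrome c oxidase (genotype Albumin-Cretg/wt:Sco1fl/fl). The albumin promoter drives Cre in hepatocytes, so other liver cells keep the gene. The titles of all 4 wild-type mice give floxed Sco1 and no Cre. By the genotype labels, however, wild-type mice 1 and 3 carried Cre and 1 floxed copy (Albumin-Cretg/wt:Sco1fl/wt), whereas both Sco1 copies were floxed and Cre was absent in mice 2 and 4 (Albumin-Crewt/wt:Sco1fl/fl). Every mouse thus had at least 1 floxed copy. In wild-type mice 1 and 3 Cre was present with that copy, so their hepatocytes may have lost 1 Sco1 copy, which was not tested. No sex, litter or collection time is given.

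The libraries could be checked on a few genes. Sco1 measured 7.48, 7.62, 7.72 and 7.56 in knockout mice 1 to 4 and 7.84, 7.93, 8.19 and 8.04 in wild-type mice 1 to 4. The groups did not overlap, and the difference was -0.41 ± 0.09 (SE; limma, adjusted p = 0.0633). Whether the probe set lies in the deleted part of the gene was not examined, so this level is a limited check. The 10 hepatocyte markers averaged 13.1 to 13.2 in every array, near the top of the scale, where an array has little room to show a difference. Groups did not overlap for 2 of the 10 (20%, beside 10.7% of all genes), both lower, while 5 of the 10 had positive differences. Serpina1a, the dimmest, measured 10.75 to 11.33 in the knockout arrays and 11.38 to 11.57 in the wild-type arrays. Its difference was -0.32 ± 0.12 (SE, limma, adjusted p = 0.226). Fgb measured 13.29 to 13.35 against 13.36 to 13.47, a difference of -0.09 ± 0.07. Past an adjusted p of 0.05 there were 0 of 10 hepatocyte markers and none of the markers of macrophages (0 of 10), lymphocytes (0 of 9), stellate cells (0 of 8), endothelium (0 of 7), cholangiocytes (0 of 5), muscle (0 of 7) and erythroid cells (0 of 1). At an unadjusted p under 0.05, 3 of 9 lymphocyte markers were higher, beside 8.61% of all genes; all 9 had positive differences (median 0.21), and their mean level was 6.09 to 6.31 in the knockout arrays and 5.89 to 6.00 in the wild-type arrays. Of the macrophage markers 9 of 10 had positive differences (median 0.10), the one past an unadjusted p of 0.05 being Cd68, at 0.36 ± 0.09 without overlap. Of the endothelial markers 2 of 7, Lyve1 at 0.37 ± 0.14 and Clec4g at 0.17 ± 0.08, were higher at that threshold. So was 1 of 7 muscle markers, Myh2, and 1 of 5 cholangiocyte markers, Sox9, was lower, at -0.29 ± 0.13. The part of these markers in the members' differences was not tested. All 9 measured proliferation markers fell (limma, adjusted p under 0.05), with a median difference of -0.77. They were Nusap1, Cdc20, Mki67, Aurkb, Plk1, Bub1, Cdk1, Ccna2 and Top2a. Their mean level was 7.94 to 8.23 in the knockout arrays and 8.75 to 9.21 in the wild-type arrays. Y-linked genes averaged 7.36 in knockout mouse 4 and 8.60 to 8.86 in the other 7 mice. In a bulk sample, fewer cells of a type and less RNA per cell cannot be told apart.

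In textbook terms, the coactivators PGC-1alpha (Ppargc1a), PGC-1beta (Ppargc1b) and PRC (Pprc1) act through the DNA-binding factors NRF1, GABPA and ERR-alpha (Esrra) on nuclear genes for mitochondrial proteins. Among their known targets is Tfam, which packages mitochondrial DNA and opens its promoters for the RNA polymerase POLRMT. In liver, Ppargc1a is also known as a gene induced by fasting.

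The DNA-binding factors among the regulators can be read against the promoters of the listed genes. RefSeq promoter windows, 250 bases before to 50 after an annotated start on GRCm38.p6, were at hand for 27 of the 32 genes. Letters of an ETS-type site as bound by GABPA (CCGGAAG or its complement) stood in 13 of these 27 genes, against 9.93% of all genes with a window and 8.86% of all 32851 windows. The core letters of an NRF1 site (CGCANGCG, either strand) stood in 9 of 27 genes, against 9.22% of genes and 8.21% of windows, and those of an ERR half-site (AAGGTCA, either strand) in 2 of 27, against 5.38% of genes and 4.72% of windows. None of these letter strings contains another. The windows of 4 genes are printed, those of the best-known target and of 3 genes described later in which such letters were found. Tfb1m, Ppargc1a and Rrm2b, whose differences are also described later, are not among the genes in which any of these letters were found. For a gene with no window in use this says nothing of its promoter. Capitals mark the motif letters found.
Tfam, chr10:71237995-71238294, minus strand: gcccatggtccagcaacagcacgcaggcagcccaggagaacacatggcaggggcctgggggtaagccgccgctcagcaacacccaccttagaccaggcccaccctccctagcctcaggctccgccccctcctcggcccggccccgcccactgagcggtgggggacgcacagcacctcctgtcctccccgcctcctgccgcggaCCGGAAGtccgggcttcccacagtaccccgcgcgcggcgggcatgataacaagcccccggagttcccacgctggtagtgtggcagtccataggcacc
Ssbp1, chr6:40471218-40471517, plus strand: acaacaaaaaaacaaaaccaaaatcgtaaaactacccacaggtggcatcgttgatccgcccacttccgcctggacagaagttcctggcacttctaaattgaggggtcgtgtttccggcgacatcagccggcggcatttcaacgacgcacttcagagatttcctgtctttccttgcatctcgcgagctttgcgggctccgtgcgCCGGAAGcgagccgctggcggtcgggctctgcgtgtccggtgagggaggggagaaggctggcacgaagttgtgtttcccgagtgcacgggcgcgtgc
Tk2, chr8:104248509-104248808, minus strand: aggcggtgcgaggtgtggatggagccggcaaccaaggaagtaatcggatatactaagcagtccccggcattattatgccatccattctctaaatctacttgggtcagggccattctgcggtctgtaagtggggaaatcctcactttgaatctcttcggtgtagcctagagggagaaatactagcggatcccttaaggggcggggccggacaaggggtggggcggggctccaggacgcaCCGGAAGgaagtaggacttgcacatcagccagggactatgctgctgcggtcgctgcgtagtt
Esrra, chr19:6921759-6922058, minus strand: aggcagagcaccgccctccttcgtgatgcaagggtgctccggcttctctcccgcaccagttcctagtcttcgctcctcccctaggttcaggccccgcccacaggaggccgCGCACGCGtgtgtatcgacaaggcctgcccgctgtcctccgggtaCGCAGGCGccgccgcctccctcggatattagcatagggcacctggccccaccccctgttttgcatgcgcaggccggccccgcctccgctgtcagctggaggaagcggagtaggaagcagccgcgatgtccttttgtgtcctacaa

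Counted from the annotated start, the ETS-type letters begin at position -47 in both Tfam and Ssbp1 and at -12 in Tk2. The Esrra window holds NRF1-type letters at -140 and -95. A match is a description of the letters in the window and not a measured site.

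Setting the knockout against the wild-type livers asks whether loss of Sco1 in hepatocytes moves the genes that build and run the mitochondrial genome. None of the 31 measured members passed an adjusted p of 0.05 (limma with Benjamini-Hochberg adjustment over all 22180 genes), where 1.15% of all genes did. At an unadjusted p under 0.05 there were 6 members (19.4%) against 16.7% of all genes, a share near the background. Of these, 3 were higher, against 8.61% of all genes, and 3 were lower, against 8.06%. Of the brighter 11090 genes 19.8% had an unadjusted p under 0.05, 737 being higher and 1461 lower. The higher members were Esrra, Ppargc1a and Rrm2b, and the lower ones Tfb1m, Ssbp1 and Tk2. The median difference over the 31 members was -0.03, beside 0.03 over all genes and -0.02 over the brighter 11090 genes, to which all 31 belong.

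The intervals bound how large a difference these arrays leave room for. For 30 of the 31 members the 95% interval of the difference lay inside a 1.5-fold change in either direction, as it did for 92.1% of all genes. The exception was Ppargc1a, whose interval ran from 0.13 to 0.92. Differences of the 31 members spanned -0.34 (Tfb1m) to 0.52 (Ppargc1a). These bounds hold on the scale of the array signal.

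**Figure D1:**
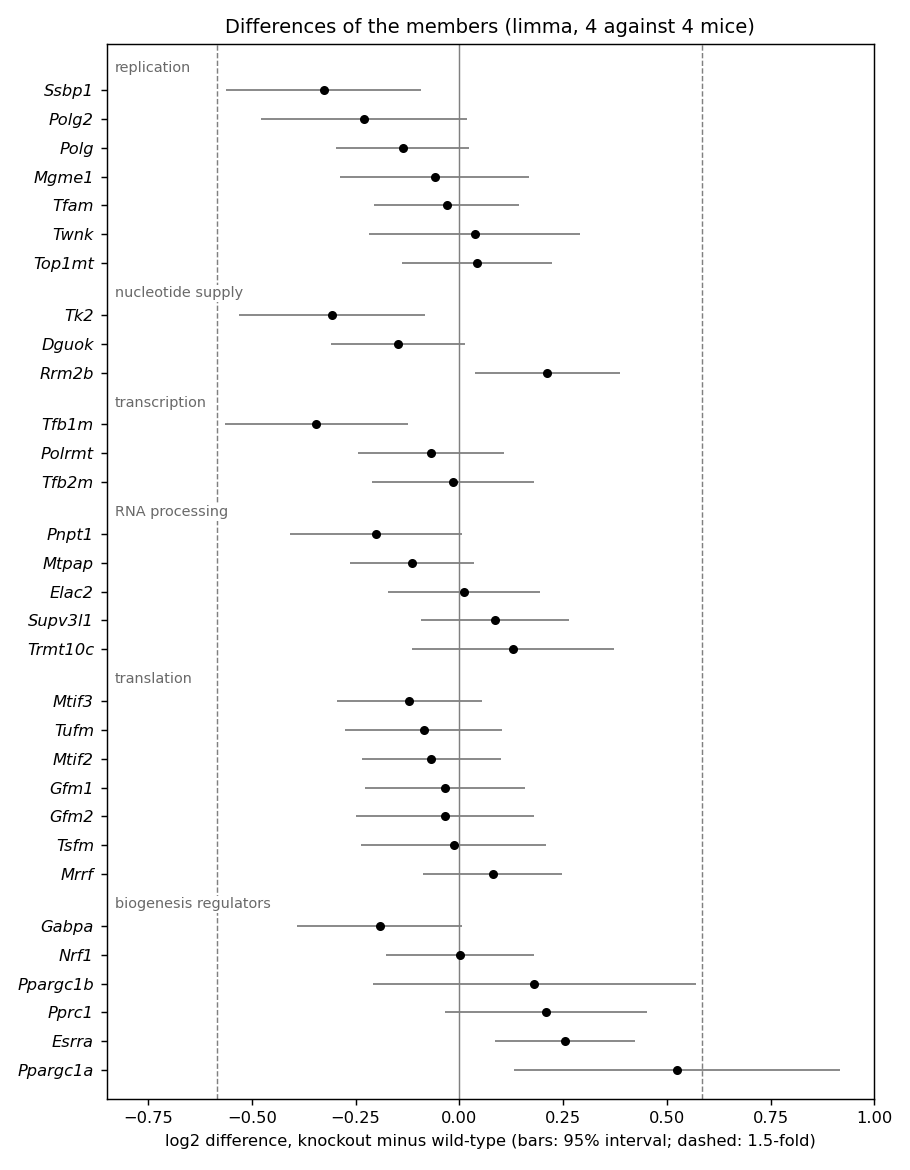
Log2 difference, knockout minus wild-type, for each of the 31 members, grouped by role; points are estimates from limma, bars are 95% intervals (4 against 4 mice) and dashed lines mark a 1.5-fold change. All intervals other than that of Ppargc1a (0.13 to 0.92) lie between the dashed lines.

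Groups did not overlap for 7 members, 2 higher and 5 lower, which is 22.6% of the members beside 10.7% of all genes and 13.9% of the brighter 11090 genes. Esrra and Rrm2b were the higher ones. Ssbp1, Polg, Dguok, Mtpap and Mtif3 were the lower ones. A probe set that lists Mtif3 together with Gtf3a, left out by the rule, differed by 0.16 ± 0.08 (SE), the other way. The dimmer probe set of Mtpap differed by -0.03 ± 0.08. Each of the 7 has the smallest p that an exact permutation test of 4 arrays against 4 can give, 0.0286 (two-sided, over 70 assignments).

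Among the factors of replication, Ssbp1 had the largest difference. It encodes the single-stranded DNA-binding protein that coats mitochondrial DNA while it is copied. Ssbp1 measured 8.04, 7.87, 8.30 and 8.19 in knockout mice 1 to 4 and 8.39, 8.38, 8.63 and 8.31 in wild-type mice 1 to 4. The groups did not overlap, the knockout livers being the lower, though knockout mouse 3 and wild-type mouse 4 were nearly equal. The means were 8.10 ± 0.19 and 8.43 ± 0.14 (SD, n = 4 each), which put the knockout at 79.7% of the wild-type level, a difference of -0.33 ± 0.11 (SE; limma, adjusted p = 0.169). A second, dimmer probe set of Ssbp1 differed by -0.08 ± 0.11.

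The mitochondrial DNA polymerase has a catalytic subunit, POLG, and an accessory subunit, POLG2. Polg measured 8.20, 8.25, 8.26 and 8.28 in the knockout livers and 8.50, 8.35, 8.37 and 8.31 in the wild-type livers. The groups did not overlap, and the knockout arrays were close together. Its difference was -0.14 ± 0.07 (SE, adjusted p = 0.374). Polg2 measured 7.02, 7.11, 6.70 and 6.76 against 7.21, 7.04, 6.96 and 7.29, with overlapping groups and a difference of -0.23 ± 0.11 (adjusted p = 0.336).

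Tfam, the packaging protein and transcription activator, measured 8.70, 8.50, 8.71 and 8.69 in the knockout livers and 8.65, 8.61, 8.79 and 8.68 in the wild-type livers. Apart from knockout mouse 2 the arrays of both groups shared 1 narrow range. The difference was -0.03 ± 0.08 (SE, adjusted p = 0.878), with a 95% interval from -0.21 to 0.14, that is, a knockout level between 86.7% and 111% of the wild-type level. Twnk, the replicative helicase, differed by 0.04 ± 0.12, Top1mt, the mitochondrial topoisomerase, by 0.04 ± 0.08, and Mgme1, an exonuclease that trims replication ends, by -0.06 ± 0.10. A brighter probe set that lists Twnk together with Mrpl43, left out by the rule, differed by -0.15 ± 0.09 (SE), the other way.

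Nucleotide supply outside the S phase depends on salvage kinases in the mitochondrion and on the p53-inducible ribonucleotide reductase subunit in the cytosol. Tk2, the mitochondrial thymidine kinase, measured 8.43, 8.60, 8.45 and 8.78 in the knockout livers and 9.06, 8.89, 8.79 and 8.75 in the wild-type livers. Only knockout mouse 4 reached into the wild-type range. The difference was -0.31 ± 0.10 (SE), or 80.9% of the wild-type level (limma, adjusted p = 0.176). Dguok, the mitochondrial deoxyguanosine kinase, measured 9.52, 9.59, 9.49 and 9.53 against 9.80, 9.65, 9.65 and 9.62, without overlap, a difference of -0.15 ± 0.07 (adjusted p = 0.344).

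Rrm2b, the ribonucleotide reductase subunit used by resting cells, stood on the other side. It measured 6.79, 6.67, 6.74 and 6.63 in the knockout livers and 6.55, 6.52, 6.57 and 6.34 in the wild-type livers. Every knockout array lay above every wild-type array. The difference of 0.21 ± 0.08 (SE) put the knockout at 116% of the wild-type level (limma, adjusted p = 0.219). The proliferation markers, all 9 of which fell, moved in the same livers, and their part in this difference was not tested.

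TFB2M melts the mitochondrial promoters with POLRMT, whereas its relative TFB1M methylates the small ribosomal RNA. Tfb1m measured 9.55, 9.72, 9.83 and 9.62 in the knockout livers and 9.80, 10.10, 10.19 and 10.01 in the wild-type livers. The groups met only where knockout mouse 3 lay above wild-type mouse 1. The means of 9.68 ± 0.12 and 10.02 ± 0.17 (SD, n = 4 each) gave a difference of -0.34 ± 0.10 (SE), or 78.8% of the wild-type level, which has the lowest adjusted p of the 31 members (limma, adjusted p = 0.128; 0.0781 to 0.376 over 20 alternative settings). Polrmt differed by -0.07 ± 0.08 and Tfb2m by -0.02 ± 0.09.

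The paralogues were not compared directly, and the dimmer probe sets of Tfb2m differed by 0.18 ± 0.15 and -0.12 ± 0.13. The Tfb1m difference was -0.37 without mouse 1 of both groups.

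RNA processing factors cut, trim, tail and degrade the long mitochondrial transcripts. None of the 5 measured members had an unadjusted p under 0.05. Pnpt1, the exoribonuclease of the degradosome, had the largest difference, -0.20 ± 0.09 (SE, adjusted p = 0.317), and its helicase partner Supv3l1 differed by 0.09 ± 0.08. Mtpap, the poly(A) polymerase, measured 9.11, 9.20, 9.17 and 9.17 against 9.23, 9.25, 9.31 and 9.31. These groups did not overlap although the difference was only -0.11 ± 0.07 (adjusted p = 0.427), since Mtpap varied between mice of a group by an SD of 0.04, less than all but 0.73% of the genes. Trmt10c and Elac2, of the enzymes that cut transfer RNA ends, differed by 0.13 ± 0.11 and 0.01 ± 0.08.

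None of the 7 translation factors of the mitochondrion had an unadjusted p under 0.05, and their differences spanned -0.12 to 0.08. Initiation factors Mtif2 and Mtif3 differed by -0.07 ± 0.08 and -0.12 ± 0.08. Elongation factors Tufm, Tsfm, Gfm1 and the recycling factor Gfm2 differed by -0.09 ± 0.09, -0.01 ± 0.10, -0.03 ± 0.09 and -0.03 ± 0.10. The recycling factor Mrrf differed by 0.08 ± 0.08 (SE, n = 4 each). A dimmer probe set of Tufm differed by -0.16 ± 0.10. One that lists Mrrf together with Rbm18, left out by the rule, differed by -0.01 ± 0.09.

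Of the 6 biogenesis regulators 5 had a positive difference, with Nrf1 and Ppargc1b changing sign under some alternative settings. Their median was 0.19, while all genes had a median of 0.03 and 57.2% of them a positive difference. The brighter 11090 genes had a median of -0.02 and 44.5% of them a positive difference. Ppargc1a measured 9.81, 9.01, 9.22 and 9.44 in knockout mice 1 to 4 and 8.63, 9.23, 8.60 and 8.92 in wild-type mice 1 to 4. Knockout mouse 1 was the highest, and wild-type mouse 2 lay within the knockout range. The means of 9.37 ± 0.34 and 8.85 ± 0.29 (SD, n = 4 each) gave a difference of 0.52 ± 0.18 (SE) or 1.44-fold (limma, adjusted p = 0.184). The exact permutation test of this gene gave p = 0.0857 (two-sided).

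Esrra, an orphan nuclear receptor that PGC-1alpha coactivates, measured 8.14, 8.17, 8.07 and 8.33 in the knockout livers and 7.94, 7.91, 7.94 and 7.90 in the wild-type livers. All knockout arrays lay above all wild-type arrays, and the wild-type arrays were close together. The difference was 0.25 ± 0.08 (SE), or 119% of the wild-type level (limma, adjusted p = 0.142; 0.0785 to 0.387 over 20 alternative settings). Its unadjusted p was under 0.05 in all 20 of these settings, as it was for Tfb1m, in 19 for Ssbp1, in 18 for Tk2, in 18 for Ppargc1a and in 16 for Rrm2b.

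The other regulators gave smaller values. Pprc1 measured 7.31, 7.11, 7.34 and 7.55 against 7.34, 7.02, 6.99 and 7.13, a difference of 0.21 ± 0.11 (SE, adjusted p = 0.37). Gabpa, the ETS factor, measured 8.88, 8.77, 8.999 and 9.14 against 9.19, 9.05, 9.18 and 9.14, a difference of -0.19 ± 0.09 (adjusted p = 0.318). Nrf1 measured 7.70, 7.58, 7.72 and 7.90 against 7.69, 7.75, 7.72 and 7.73. Its difference of 0.00 ± 0.08 was the smallest of the 31 (adjusted p = 0.992), with a knockout level between 88.5% and 113% of the wild-type level.

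**Figure D2:**
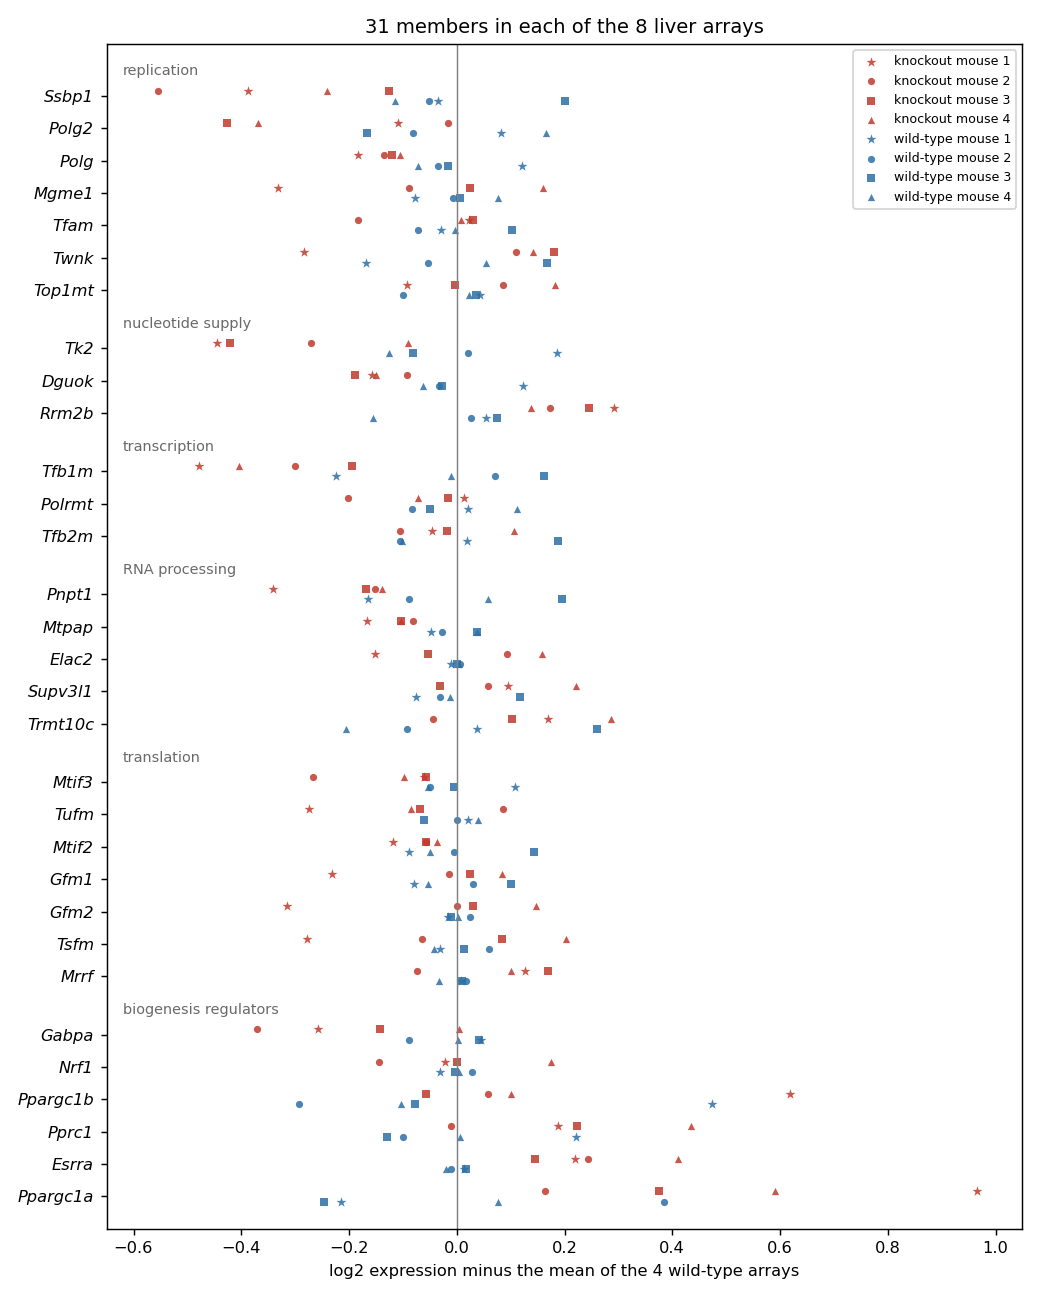
Log2 expression of the 31 members in each array, minus the mean of the 4 wild-type arrays, grouped by role. Red symbols are knockout mice, blue symbols wild-type mice, and the symbol's shape is the mouse number. The labels do not say whether a number joins animals across groups. Esrra, Rrm2b, Ssbp1, Polg, Dguok, Mtpap and Mtif3 show no overlap, and knockout mouse 1 is the lowest array for 13 members.

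Variation between mice of a group was unequal among the members. The coactivators varied most, Ppargc1a by a pooled SD of 0.32 and Ppargc1b by 0.32, more than 96.4% and 96.3% of all genes. The median SD over the 31 members was 0.11, beside 0.14 over all genes. Ppargc1b measured 7.95, 7.39, 7.27 and 7.43 in the knockout livers and 7.80, 7.03, 7.25 and 7.23 in the wild-type livers, a difference of 0.18 ± 0.18 (SE, adjusted p = 0.637). In both groups mouse 1 was the highest array.

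The same arrays stood apart in clock genes, which were looked at after these values were seen. Nr1d1, the clock repressor REV-ERB-alpha, measured 11.32 in knockout mouse 1 and 11.36 in wild-type mouse 1, and 8.16 to 9.77 in the other 6 mice. Dbp, a clock output gene, measured 9.66 and 9.86 in those mice and 6.87 to 7.33 in the others. Ppargc1a was the highest array in knockout mouse 1, at 9.81, but at 8.63 in wild-type mouse 1 it was the second lowest of its group.

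Without mouse 1 of both groups, a setting chosen after the values were seen, the difference of Ppargc1a was 0.31 (limma, unadjusted p = 0.102), that of Tk2 was -0.20 (unadjusted p = 0.0916) and that of Rrm2b 0.20 (unadjusted p = 0.0572). Those of Esrra, 0.27, Tfb1m, -0.37, and Ssbp1, -0.32, had unadjusted p-values of 0.0184, 0.00332 and 0.041. Ppargc1b differed by 0.19 in that setting, by 0.03 without knockout mouse 1 alone and by 0.34 without wild-type mouse 1 alone (unadjusted p = 0.0487).

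**Figure D3:**
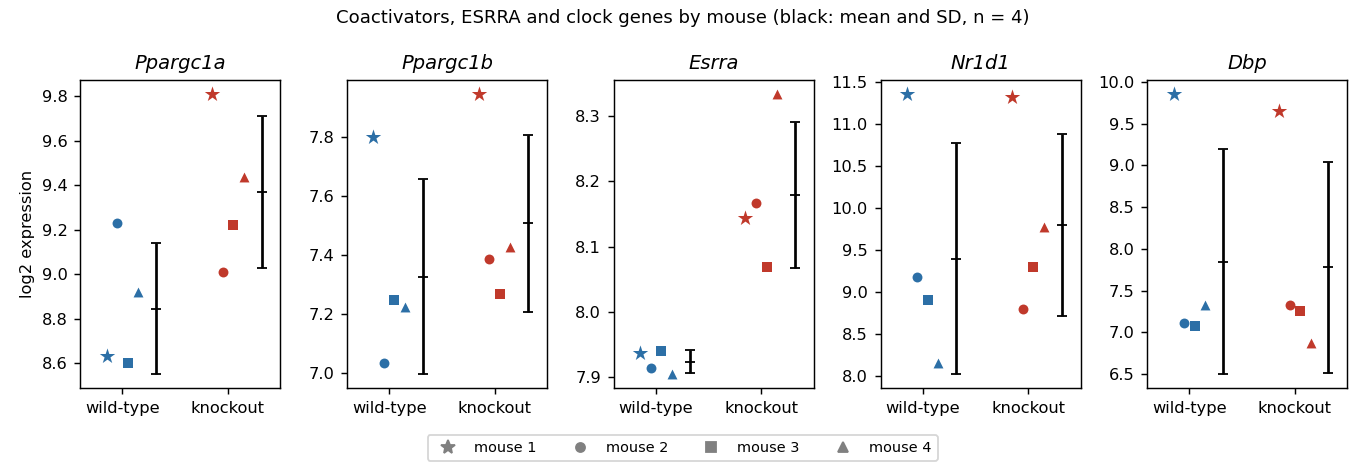
Log2 expression of Ppargc1a, Ppargc1b, Esrra, Nr1d1 and Dbp in each mouse, with a separate vertical axis for each gene; blue symbols are wild-type and red symbols knockout mice, shapes give the mouse number, and black bars the mean and SD of 4 mice. Mouse 1 (star) of both groups is the highest of its group in Ppargc1b, Nr1d1 and Dbp, and for Esrra every knockout mouse lies above every wild-type mouse.

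Knockout mouse 1 was also the low array for much of the list. It was the lowest of the 8 for 13 of 31 members (41.9%), while it was the lowest for 22.6% of the brighter 11090 genes. Of the 7 translation factors it was the lowest knockout array for 5: Tufm at 11.13, Tsfm at 8.10, Gfm1 at 9.47, Gfm2 at 9.11 and Mtif2 at 8.34. Among all 31 members it was the lowest knockout array for 14 (45.2%), beside 31.4% of the brighter genes and 27.3% of all genes. Knockout mouse 4 was at the other end, the highest of the 8 for 10 members (32.3%, beside 18.3% of the brighter genes). It was the lowest for 0 members, beside 15.2% of the brighter genes. Without knockout mouse 1 the median difference over the members was 0.01, and without knockout mouse 4 it was -0.07.

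**Figure D4:**
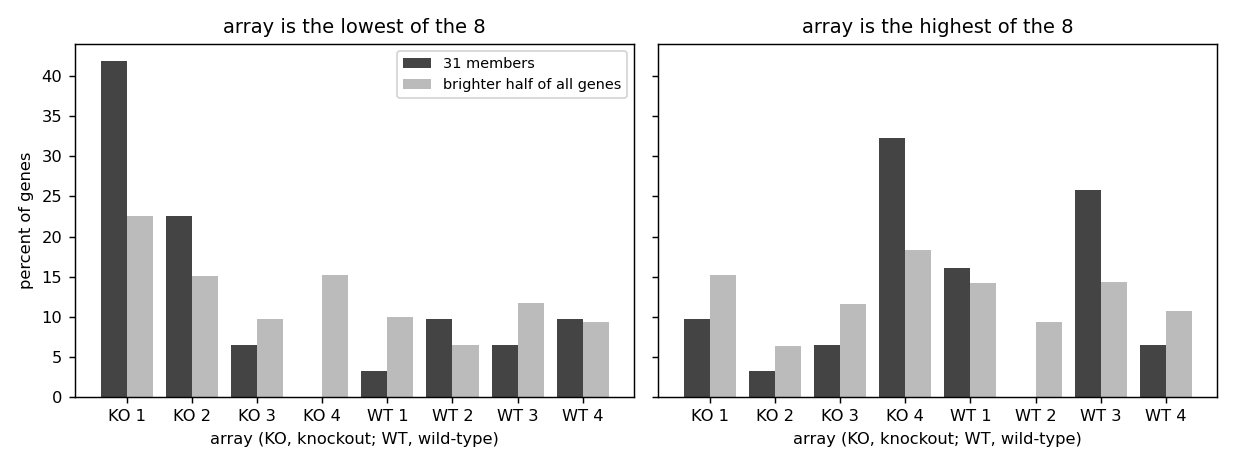
Percent of the 31 members (dark bars) and of the brighter 11090 genes (light bars) for which each array is the lowest (left) or the highest (right) of the 8. Knockout mouse 1 is the lowest array for 41.9% of the members and knockout mouse 4 the highest for 32.3%.

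The controls were of 2 genotypes, so the knockout was set against each in a fit of 3 groups. These genotypes differ both in Cre and in floxed Sco1 copies, and the parts of each cannot be told apart. Against the Cre-carrying controls 5 members had an unadjusted p under 0.05 (16.1%, beside 11.8% of all genes), and against the Cre-free controls 4 (12.9%, beside 11.5%). No member passed the adjusted threshold in either. Between the control genotypes 0 members did so at an unadjusted p under 0.05, beside 3.03% of all genes.

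Ppargc1a averaged 8.62 in the Cre-carrying controls, 9.08 in the Cre-free controls and 9.37 in the knockout. Its difference was 0.75 ± 0.19 against the first and 0.29 ± 0.19 against the second (SE; limma, adjusted p = 0.198 and 0.595), and the controls differed from each other by -0.46 ± 0.22 (Cre-carrying minus Cre-free, unadjusted p = 0.0642). Esrra averaged 7.94 and 7.91 in these controls and differed from them by 0.24 ± 0.10 and 0.27 ± 0.10. Tfb1m differed by -0.31 ± 0.13 and -0.38 ± 0.13. The other 3 members with an unadjusted p under 0.05 over all controls missed it against 1 control genotype. Ssbp1 differed by -0.41 ± 0.13 from the Cre-carrying and by -0.24 ± 0.13 from the Cre-free controls (unadjusted p = 0.0106 and 0.0919), and Tk2 by -0.36 ± 0.13 and -0.25 ± 0.13 (unadjusted p = 0.0193 and 0.077). Rrm2b differed by 0.15 ± 0.10 and 0.28 ± 0.10 (unadjusted p = 0.164 and 0.0177). Ppargc1a too missed it against the Cre-free controls (unadjusted p = 0.157). Each control genotype had 2 mice, and wild-type mouse 1 was of the Cre-carrying one.

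Other genes of the same pathway were taken from lists by role. Of 129 listed genes 120 were measured, and none passed the adjusted threshold. The unadjusted threshold of 0.05 was met by 17 (14.2%), beside 16.7% of all genes. Of the 17, 4 rose and 13 fell. The brighter 11090 genes leaned downward too, 1461 falling and 737 rising by this criterion. Over all genes the shares were 8.06% falling and 8.61% rising, so the split alone does not set the pathway apart. Groups did not overlap for 12 of the 120, beside 10.7% of all genes.

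Among 27 genes of replication and the nucleoid, the flap endonuclease Fen1, which the nucleus also uses for DNA replication, differed by -0.50 ± 0.12 (SE; limma, adjusted p = 0.0691). Slc25a4, the heart and muscle form of the ADP/ATP carrier, differed by 0.56 ± 0.15 (adjusted p = 0.0963), and Mterf4, a factor of mitochondrial ribosome assembly, by -0.24 ± 0.07. Beside Slc25a4, the 7 muscle markers averaged 5.47 to 5.69 in the knockout arrays and 5.35 to 5.47 in the wild-type arrays. Of the 7, 6 had positive differences, and Myh2 was higher by 0.38 ± 0.10 without overlap (SE, limma, adjusted p = 0.0963). Beside Fen1, all 9 proliferation markers fell. The part of these markers in the differences was not tested.

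Among 40 genes of transcription and RNA, Osgepl1, which modifies mitochondrial transfer RNAs, differed by -0.34 ± 0.08 (SE; limma, adjusted p = 0.0585), the oligoribonuclease Rexo2 by -0.32 ± 0.08 (adjusted p = 0.0963) and Qtrt2 by -0.21 ± 0.07. Among 24 genes of translation, Mtfmt, the formyltransferase that makes the initiator transfer RNA, differed by -0.21 ± 0.07, the ribosome-binding factor Rbfa by -0.27 ± 0.10 and the release factor Mtrf1 by -0.19 ± 0.08. At an unadjusted p under 0.05, 4 of the 40 were lower and 2 higher, and 5 of the 24 were lower and 0 higher. Over all genes 8.06% were lower and 8.61% higher, and of the brighter 11090 genes 1461 were lower and 737 higher.

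Among 29 other regulators of biogenesis, 1 was higher and 1 lower at an unadjusted p under 0.05. Mef2d differed by 0.44 ± 0.16 and the AMPK subunit genes Prkag1 and Prkaa2 by -0.21 ± 0.08 and 0.22 ± 0.10 (SE; limma, adjusted p = 0.196, 0.237 and 0.313).

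The RNAs that all these factors make and read could be measured in part. Of 15 protein-coding and ribosomal RNA genes of the mitochondrial genome 10 were measured, and none had an unadjusted p under 0.05. Differences were positive for 9 of the 10, and groups did not overlap for 2 (20%, beside 10.7% of all genes), ND5 and COX1, both higher in the knockout. The group means of 9 of them, all but ND6, stood between 13.3 and 13.8 in both groups, at the top of the scale, where an array has little room to show a higher level. ND6, the protein-coding gene of the light strand, measured 7.16 and 7.37, a difference of -0.20 ± 0.37 (SE). ND5, COX1 and ND4L, subunits of complexes I and IV, had the lowest adjusted p of the 10, with differences of 0.06 ± 0.07, 0.05 ± 0.07 and 0.05 ± 0.07.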

How the data were processed

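Liver RNA of 4 knockout and 4 wild-type mice was measured on 1 array each. Per the submitters' processing notes, the authors ran RMA, which subtracts background, equalises the arrays' distributions and gives 1 value a probe set, in oligo 1.24. The deposited values were taken as log2 from their range, since no label states the scale. Chip definition and genome build are not given in the sources used here. Of 39137 probe sets 23521 list 1 gene symbol in the platform annotation, 1814 several and 13802 none. A gene's brightest probe set over all arrays stood for it. All 31 measured members were found in the RefSeq gene table of GRCm38.p6 by gene number.

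Differences are knockout minus wild-type from limma 3.58.1 under R 4.3.3 (lmFit then eBayes, two-sided, group as the only term), with p-values adjusted by Benjamini-Hochberg over 22180 genes. Where a p stands beside an n under 10 it comes from this fit or from an exact permutation test. Labels do not say whether mice were littermates. The fit was tested on simulated data. Members, gene lists and tests were chosen with earlier results of these data known. Named genes are Sco1, all members and, of each other list, those past the threshold and up to 3 of lowest adjusted p, with full statistics for members at an unadjusted p under 0.05 and for Ppargc1a, Tfam, Nrf1 and Gabpa; Nr1d1, Dbp and ND6 were chosen after their values were seen. Mitochondrial transcripts were matched through the RefSeq symbols of that genome. Alternatives were another variance model, quantile normalization anew, array centring, a filter on dim genes, array weights, probe sets averaged or all kept, a block for the mouse number, the Y-linked level as covariate, each control genotype, each array left out and, chosen after seeing the data, mouse 1 of both groups left out. The number of arrays limits the precision.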

Additional observations from a re-analysis of the deposited data

Results flagged for a closer look

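In 4 of 62 groups of 4 arrays (6.45%, beside 5.48% over all genes) 1 array lay far from the other 3; chance alone marks about 1 group in 20. Tfam measured 8.50 in knockout mouse 2, below the 8.69 to 8.71 of the other knockout mice. Twnk measured 7.70 in knockout mouse 1, below 8.09 to 8.16. Pnpt1 measured 9.46 in knockout mouse 1, below 9.64 to 9.66. Top1mt measured 8.03 in wild-type mouse 2, below 8.15 to 8.17.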

How the results depend on the processing

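No member passed the adjusted threshold under any of 20 alternatives (lowest adjusted p 0.0781, Tfb1m without wild-type mouse 1), and no transcript of the mitochondrial genome did. Members at an unadjusted p under 0.05 numbered 11 with arrays centred on their median and 5 to 9 with 1 array left out. Genes past the threshold, 255 in the main comparison, numbered 459 with a trended robust variance, 442 without dim genes, 33 with all probe sets tested, 151 with the Y-linked covariate, 29 and 47 against the Cre-carrying and Cre-free controls, 91 to 175 with 1 array left out (a change of over 1.5 times for each array but knockout mouse 4) and 65 without mouse 1 of both groups. Other pathway genes past it numbered 2 with the robust variance and 2 without dim genes, 1 with centring, 1 with array weights, 0 to 1 with 1 array left out (1 without wild-type mouse 1) and 1 without mouse 1 of both groups. The median difference over the members lay between -0.07 and 0.01 with 1 array left out.

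Of the 31 members 19 kept their sign throughout and 12, none with a difference past 0.18 in either direction, did not. Sign changes were 0.016 (Tfam), 0.027 (Tfb2m) and 0.034 (Tsfm) after renewed quantile normalization; -0.018 (Elac2) and -0.027 (Nrf1) with centring; 0.016 (Tfb2m) with averaged probe sets; -0.019 (Nrf1) with array weights; and -0.0034 (Top1mt), -0.041 (Elac2) and -0.063 (Nrf1) with the Y-linked covariate. Against the Cre-carrying controls they were -0.020 (Trmt10c) and -0.018 (Ppargc1b), and against the Cre-free controls 0.0063 (Tfam), 0.087 (Tfb2m) and -0.014 (Nrf1). Without mouse 1 of both groups they were 0.0061 (Mgme1), 0.00094 (Tfb2m), 0.064 (Tsfm), 0.0047 (Gfm1), 0.053 (Gfm2) and -4.9e-05 (Nrf1). With 1 array left out the ranges were -0.054 to 0.020 (Tfam), -0.020 to 0.14 (Twnk), -0.0033 to 0.088 (Top1mt), -0.13 to 0.032 (Mgme1), -0.056 to 0.047 (Tfb2m), -0.037 to 0.066 (Elac2), -0.086 to 0.074 (Tsfm), -0.074 to 0.031 (Gfm1), -0.095 to 0.059 (Gfm2) and -0.055 to 0.051 (Nrf1). Other small differences kept their sign but moved by over 1.5 times with 1 array left out: Tufm to -0.02 without knockout mouse 1 and -0.14 without knockout mouse 2, Mtif2 to -0.02 without wild-type mouse 3, Mtif3 to -0.07 without knockout mouse 2, Polrmt to -0.02 (knockout mouse 2 left out) and -0.03 (wild-type mouse 4 left out), Supv3l1 to 0.04 and Pprc1 to 0.13 without knockout mouse 4, Trmt10c to 0.08 without knockout mouse 4, and to 0.22 and 0.06 when wild-type mice 3 and 4 were dropped in turn, Mrrf to 0.13 and 0.05 without knockout mice 2 and 3, and Ppargc1b to 0.03, 0.34 and 0.08 without knockout mouse 1, wild-type mouse 1 and wild-type mouse 2. The cause was not tested.

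Across genes, deviations from the group means correlated at 0.27 between the knockout and the wild-type mouse of number 1. Numbers 2 to 4 gave -0.02, 0.03 and -0.10, and pairs of unlike number gave -0.15 to 0.12. Such correlations cannot tell whether mice of numbers 2 to 4 were paired, and the labels do not say. The mice of number 1 resembled each other more than any other pair across the groups, and the cause was not tested. With mouse number as a block (replicate block) 210 genes and 0 members passed, and 7 members had an unadjusted p under 0.05.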
